A study of Sus scrofa with 48 samples.

Results

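Cytosolic ribosomal proteins were examined in perirenal adipose tissue, the fat depot around the kidney (PRAT), of growing pigs. A gene was a member when its symbol in the gene name column of the array files began with RPL or RPS followed by a digit, or with RPLP, kinases of the RPS6K type left aside. Case was ignored, because 15 of the member probes carried a symbol with a lower-case letter. This gave 84 genes of the 45222 distinct names in that column, many of which are not gene symbols, and 293 probes of 60 bases. By symbol the members fell into 37 proteins of the large subunit, 30 of the small subunit, the 3 stalk proteins RPLP0, RPLP1 and RPLP2, 7 paralogs whose symbol ends in L or L1, 6 pseudogene symbols and RPS19BP1, which binds a ribosomal protein without being one. Each gene was followed on its probe with the highest mean level.

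The study used 48 Large White barrows of 132 days of age, from 2 lines bred in opposite directions for residual feed intake (RFI), the difference between the feed a pig eats and the feed its growth and maintenance are predicted to need. Low RFI pigs (RFIneg) are thus the more feed-efficient line and high RFI pigs (RFIpl) the less efficient one. Pigs of both lines received either a diet rich in fat and fiber (HF) or a diet low in both and based on starch (LF), with 12 pigs in each of the 4 groups HF_RFIneg, HF_RFIpl, LF_RFIneg and LF_RFIpl. The RNA of each pig was hybridised to 1 one-colour porcine array, and there were 6 slides of 8 arrays with 2 pigs of each group on every slide, scanned on 2 days.

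A ribosome makes protein from mRNA and consists of a small subunit, which reads the mRNA, and a large subunit, which joins the amino acids, each built from ribosomal RNA and one copy of most of its proteins. The mRNAs of these proteins are among the most abundant of any tissue and begin with a pyrimidine-rich stretch, the TOP motif, through which the kinase complex mTORC1 controls their translation, so the amount of the mRNA and the amount of protein made from it can part. In adipose tissue they come from adipocytes and from every other cell present. A member with several probes was measured several times on each array, at different places of its mRNA.

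Probes on which the comparisons by line or by diet turned are given here 5′ to 3′ as the array files hold them. Probes that may lie past the coding part are shown by 30 bases. For RPL38 capitals mark AATAAA, the signal for cleavage and polyadenylation of an mRNA, which 52 of the 293 member probes held, read on the strand printed, against 10.3% of all probes. For RPL6 capitals mark the run of 37 bases that both overlapping probes share. No capitals are used for the others. The probes of RPL38, RPL35 and RPL6 are shown for the contrast, within a gene, between a probe called by line and one not called. Those of RPL14 are shown as called probes of 1 gene, those of RPL26L1 for their opposite signs by diet, and that of RPL3 as a probe called by diet.
RPL38, probe A_72_P016041: tcccagtagacaAATAAAgccatctctctc
RPL38, probe O12413: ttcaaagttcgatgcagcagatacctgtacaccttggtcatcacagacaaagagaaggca
RPL35, probe O809: ctaaactgcttggtctggattttgttgtct
RPL35, probe A_72_P440021: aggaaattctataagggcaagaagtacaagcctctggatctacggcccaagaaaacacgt
RPL6, probe A_72_P734143: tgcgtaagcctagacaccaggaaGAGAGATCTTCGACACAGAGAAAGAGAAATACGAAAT
RPL6, probe A_72_P740378: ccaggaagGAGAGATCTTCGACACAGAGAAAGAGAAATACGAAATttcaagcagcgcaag
RPL6, probe CUST_396_PI427286967: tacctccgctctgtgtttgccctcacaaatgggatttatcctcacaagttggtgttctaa
RPL14, probe A_72_P563904: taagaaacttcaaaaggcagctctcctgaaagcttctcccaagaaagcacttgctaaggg
RPL14, probe A_72_P655183: agcacctgctccaaaagcatctggcaagaa
RPL26L1, probe A_72_P537038: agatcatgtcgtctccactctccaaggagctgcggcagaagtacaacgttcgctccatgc
RPL26L1, probe O11435: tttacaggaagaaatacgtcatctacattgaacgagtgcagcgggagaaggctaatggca
RPL3, probe A_72_P065101: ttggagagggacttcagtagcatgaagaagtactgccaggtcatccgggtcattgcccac

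Between 38875 and 47814 probes per array were well above background, the median signal of an array lay between 115 and 178 intensity units over a local background of 23 to 33, and no spot was saturated. Levels are given as log2 signal minus the median of the array, so a level of 0 is that of the median probe. A probe was tested when it was well above background on every array of at least 1 group, which 40510 probes did. Among the members, 285 of 293 probes and the chosen probe of 82 of 84 genes passed, and those 82 were well above background on all 48 arrays. The chosen probes of RPL13, a large subunit protein, and RPS4X, a small subunit protein, were well above background on 4 arrays and 1 array and were not tested. Under the separate symbol RPS4, 15 probes were tested, with levels from 6.38 to 9.01. Whether the symbols RPS4 and RPS4X name the same mRNA was not tested. The median level of the tested members was 8.95, with a range from 0.06 for the pseudogene symbol RPS26P11 to 10.98 for RPLP2, against a median of 1.61 over all tested probes. As a check of the labelled tissue, all 7 adipocyte markers passed this filter, while CDH16, NPHS1 and SLC12A1 of the 4 measured kidney markers did not and the kidney marker AQP2 did, at a level of 3.06.

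Most ribosomal protein mRNAs differed little between the diets. A difference is called here when its raw p was below 0.01, its fold above 1.1 and its Benjamini-Hochberg adjusted p below 0.08 in the limma fit over all tested probes, with the sign that of HF minus LF. By diet 8 of the 82 members were called, 9.76%, with 5 higher and 3 lower in HF pigs, whereas 24.3% of all tested probes were called. Among the 578 probes of other genes at least as bright as the median member, 27.0% were called, 3 of them higher and 153 lower in HF pigs. The median difference of the members was 0.01 on the log2 scale, against -0.02 over all tested probes and -0.06 over those bright probes, and 43 of 82 members lay above 0. For 51 members (62.2%) the whole 95% interval lay inside the fold threshold of 1.1 in either direction, which held for 15.4% of all tested probes and 33.7% of the bright ones. The median standard error was 0.04 among members and 0.06 among all probes. The spread between pigs was larger than the gap between diets. The mean over members, each centred on its own mean, ranged from -0.307 to 0.178 between pigs with an SD of 0.105 within groups, while its means were 0.0067 in HF and -0.0067 in LF pigs (n = 24 each).

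The split of the diet calls rested on the scaling. It was 13 higher and 2 lower of 82 after quantile normalization, where 23.6% of all tested probes were called (4970 higher, 4610 lower). It was 25 higher and 0 lower when arrays were centred on spike-in RNA, where 29.1% of all probes were called (10016 higher, 1759 lower). Spike-in centring moved the median over all probes from -0.02 to 0.085 and that of the members to 0.11. Relative to all probes, the members then stood 0.03 higher. When the scanner's background-subtracted signal was used the median of the members was -0.02, so that its sign turned.

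**Figure D1:**
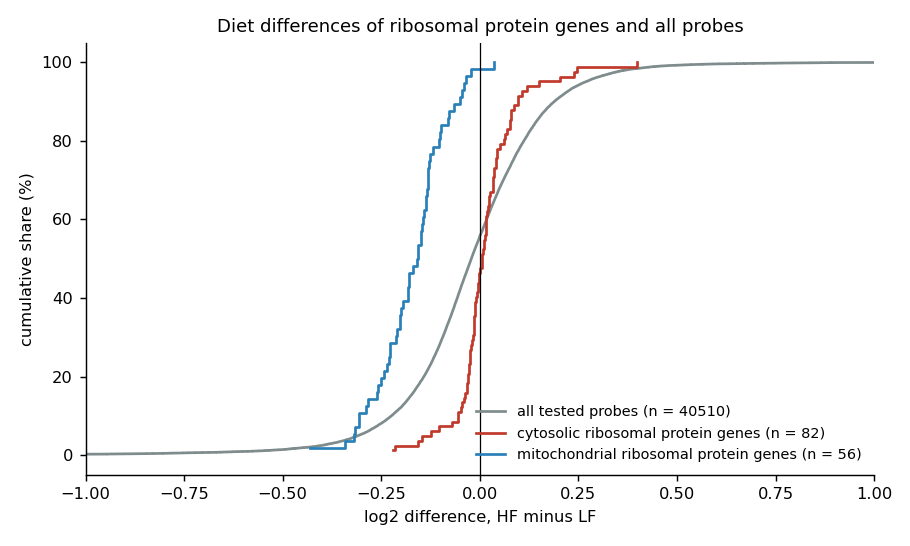
Cumulative share of genes or probes (vertical axis, %) by diet difference (horizontal axis, log2, HF minus LF) for all 40510 tested probes, the 82 cytosolic and the 56 mitochondrial ribosomal protein genes, 1 probe a gene; differences beyond 1 in either direction lie outside the axis. The cytosolic members rise steeply around their median of 0.01, and the mitochondrial ones lie to the left with a median of -0.16.

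The largest diet difference was that of RPL22L1, the paralog of the large subunit protein RPL22. Its level ran from 1.103 through a median of 1.44 to 1.81 in HF pigs and from 0.40 through 1.11 to 1.41 in LF pigs. The groups overlapped, but 23 of 24 HF pigs lay above the LF median and 15 above every LF pig. The difference was 0.40 (SE 0.06, 95% interval 0.28 to 0.52, limma adjusted p = 4.17e-06), it was 0.38 in the low and 0.42 in the high RFI line, and it was positive on 6 of 6 slides. RPL22 itself was called in neither contrast and gave -0.01 by diet.

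Of 36 tested large subunit proteins, 3 were called (8.33%, against 24.3% of all tested probes), each higher in HF pigs. RPL13A, which also takes part in silencing of inflammatory mRNAs, ran from 7.64 through 7.85 to 8.13 in HF and from 6.93 through 7.62 to 8.05 in LF pigs. All 24 HF pigs lay above the LF median, and the difference was 0.25 (SE 0.06, adjusted p = 0.0033) on both of its probes, which overlap. RPL3, which reaches toward the peptidyl transferase centre, ran from 5.94 through 6.24 to 6.41 in HF and from 5.40 through 6.03 to 6.23 in LF pigs. Here 13 HF pigs exceeded every LF pig, with a difference of 0.24 (SE 0.05, adjusted p = 0.000245). RPL9, a protein near the base of the stalk, varied most between pigs of 1 group of all tested members (SD 0.265) and ran from 2.59 through 3.27 to 3.56 in HF and from 2.53 through 2.97 to 3.56 in LF pigs. The groups shared nearly their whole range, and the difference was 0.20 (SE 0.08, adjusted p = 0.035). It was positive on 6 of 6 slides, but the call was lost in 5 of 19 other settings, among them the deposited values.

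None of the 29 tested small subunit proteins, the 3 stalk proteins or the 6 pseudogene symbols was called by diet. The small subunit proteins lay between -0.05 for RPS25 and 0.11 for RPS9. The stalk proteins, which recruit the elongation factors, gave 0.12 (SE 0.07) for RPLP0, -0.05 (SE 0.03) for RPLP1 and -0.02 (SE 0.05) for RPLP2. Without the paralogs, the pseudogene symbols and RPS19BP1, 3 of 68 members were called by diet (4.41%, against 24.3% of all tested probes).

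Of the 7 paralogs, 4 were called by diet (57.1%, against 24.3% of all tested probes). Besides RPL22L1, RPL3L was higher in HF pigs. It is the muscle counterpart of RPL3, and its level ran from 8.94 through 9.13 to 9.37 in HF and from 8.3996 through 9.02 to 9.20 in LF pigs, with 22 HF pigs above the LF median. Its difference was 0.15 (SE 0.04, adjusted p = 0.0035), close to the fold threshold of 0.14 on the log2 scale, and the call was lost in 3 of 19 other settings. Beside it, none of the 5 tested skeletal muscle markers was called by diet (median -0.13). RPL3 and RPL3L are related in coding sequence, and how far each probe reads the other mRNA was not tested.

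Of the paralogs, RPS27L and RPL7L1 were lower in HF pigs. RPS27L, a target of p53, ran from 0.31 through 0.84 to 1.16 in HF and from 0.71 through 1.0995 to 1.45 in LF pigs. Only 2 HF pigs lay above the LF median, no slide showed the opposite sign, and the difference was -0.21 (SE 0.05, adjusted p = 0.000552). RPL7L1, an RPL7 relative that works in making the large subunit, ran from 6.18 through 6.50 to 6.75 in HF and from 6.11 through 6.67 to 7.03 in LF pigs. Its difference was -0.16 (SE 0.05, adjusted p = 0.020), its 4 probes gave -0.16 to -0.13 with 2 called, and 23 HF pigs lay below the LF median. The call on RPL7L1 was lost in 6 of 19 other settings, among them quantile normalization (-0.07). RPL10L, RPL26L1 and RPL36AL gave 0.01, 0.02 and -0.01 on their brightest probes.

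RPS19BP1 was likewise lower in HF pigs. It encodes a nucleolar protein that binds RPS19 and the deacetylase SIRT1. Its level ran from 4.79 through 5.13 to 5.54 in HF and from 4.83 through 5.36 to 5.62 in LF pigs, 22 HF pigs lay below the LF median, and the difference was -0.22 (SE 0.05, adjusted p = 0.0015) with the same sign on 6 of 6 slides. When arrays were centred on spike-in RNA, no call remained for RPS27L, RPL7L1 or RPS19BP1, with differences of -0.11, -0.05 and -0.11.

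**Figure D2:**
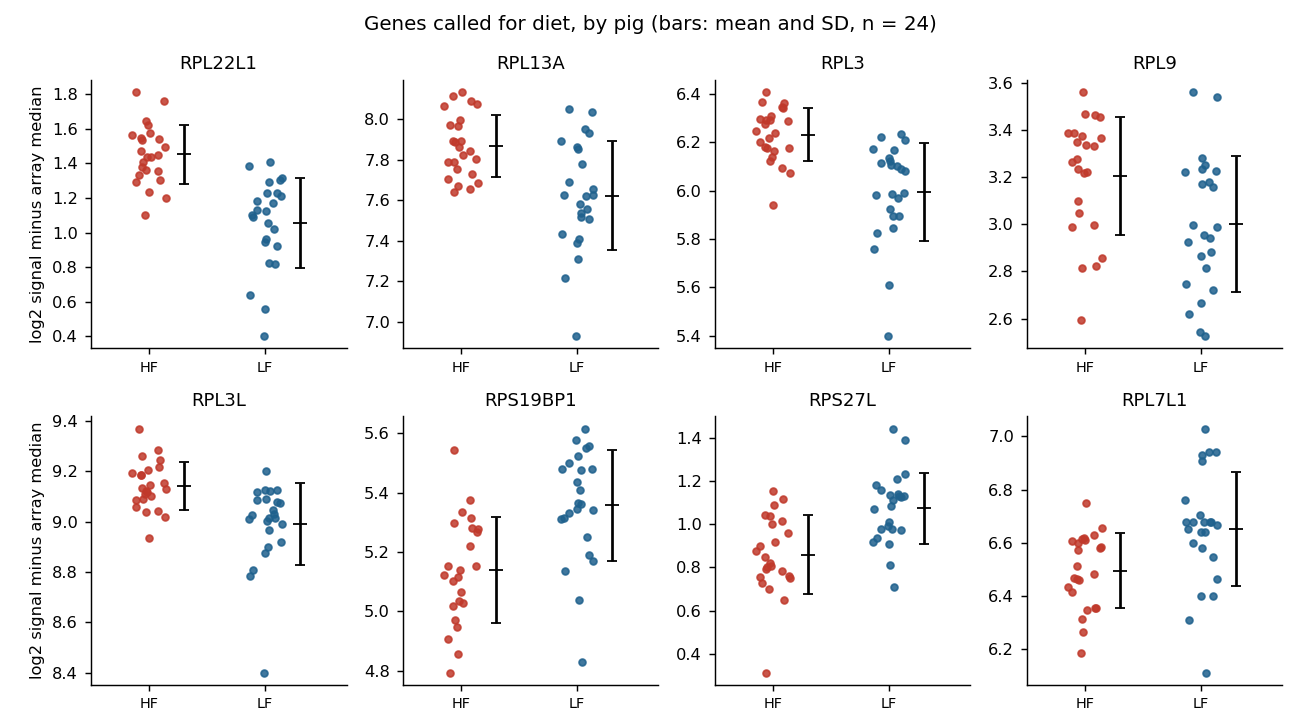
Level (vertical axis, log2 signal minus array median) of the 8 members called by diet, 1 point a pig, for HF and LF pigs, with bars for the mean and SD (n = 24). The diets overlap in every panel, most fully for RPL9, and least for RPL22L1, where 15 HF pigs lie above all LF pigs.

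In a tissue sample fewer cells of a type and less RNA per cell cannot be told apart. Some cell type markers were called by diet, as were 24.3% of all tested probes. Of 6 tested macrophage markers, 5 were called higher in HF pigs, with a median difference of 0.44. Their mean level ran from 2.201 to 4.27 in HF pigs (median 3.34) and from 2.07 to 3.95 in LF pigs (median 2.81), and CD68 did not pass the filter. Among 7 markers of T and NK cells, with differences from -0.13 to 0.34, CD3G and NKG7 were called higher. The mean level of these 7 had a median of 1.92 in HF and 1.75 in LF pigs. Of 7 adipocyte markers, with differences from -0.24 to 0.08, CIDEC and PPARG were called lower in HF pigs. The mean level of these 7 ran from 9.10 to 9.63 in HF and from 9.24 to 9.73 in LF pigs. For PPARG the paper reported the opposite direction by qPCR in this depot, higher with the HF diet. SLC4A1 among 3 erythrocyte markers (-0.36), CIDEA among 3 of brown fat (-0.42) and AQP2, the single tested kidney marker (-0.63), were also lower. No marker of B and plasma cells, endothelium, fibroblasts, adrenal or mesothelium was called. The part of any of these in the differences of the members was not tested.

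By line, 2 of the 82 members were called (2.44%), both higher in low RFI pigs, against 3.57% of all tested probes and 1.56% of the bright ones. The median difference, low minus high RFI, was 0.03 against 0.00 over all probes. It lay above 0 in 67 members (81.7%) against 50.2% of all probes, but members move together from pig to pig and are not independent. The mean over members was 0.0168 in the low and -0.0168 in the high RFI line, a gap smaller than the SD of 0.105 between pigs of a group. The median was 0.05 among LF pigs alone and -0.0047 among HF pigs alone. For 57 members (69.5%) the 95% interval lay inside the fold threshold, against 30.3% of all probes.

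RPL14, a large subunit protein, differed most on its chosen probe. It ran from 8.27 through 8.68 to 8.99 in low RFI and from 8.08 through 8.31 to 8.65 in high RFI pigs, so that 16 low RFI pigs exceeded every high RFI pig. The difference was 0.34 (SE 0.04, 95% interval 0.25 to 0.43, adjusted p = 2.1e-06), 0.32 on HF and 0.36 on LF, with the same sign on 6 of 6 slides. It was called in 19 of 19 other settings. Of the 7 RPL14 probes 6 were called, with differences from 0.31 to 0.46. The remaining probe, the dimmest with a level of 2.16, gave 0.24 (SE 0.12, adjusted p = 0.36). The probes of RPL14 printed above gave 0.31 and 0.34.

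RPS25, a small subunit protein needed for initiation at some viral mRNAs, ran from 8.56 through 9.26 to 9.63 in low RFI and from 8.69 through 9.05 to 9.27 in high RFI pigs. The ranges overlapped, 10 low RFI pigs lay above every high RFI pig, and the difference was 0.17 (SE 0.05, adjusted p = 0.075), just inside the threshold. In 8 of 19 other settings the call was lost. RPS27L stood just outside, with 0.15 (SE 0.05, adjusted p = 0.085). With the slide, the scan day or the replicate number as a block, or with array weights, it was called, at adjusted p = 0.070, 0.071, 0.048 and 0.079, while over the other settings with all pigs its adjusted p reached 0.24. No marker of the cell types listed was called by line, and the macrophage markers had a median difference of 0.05.

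**Figure D3:**
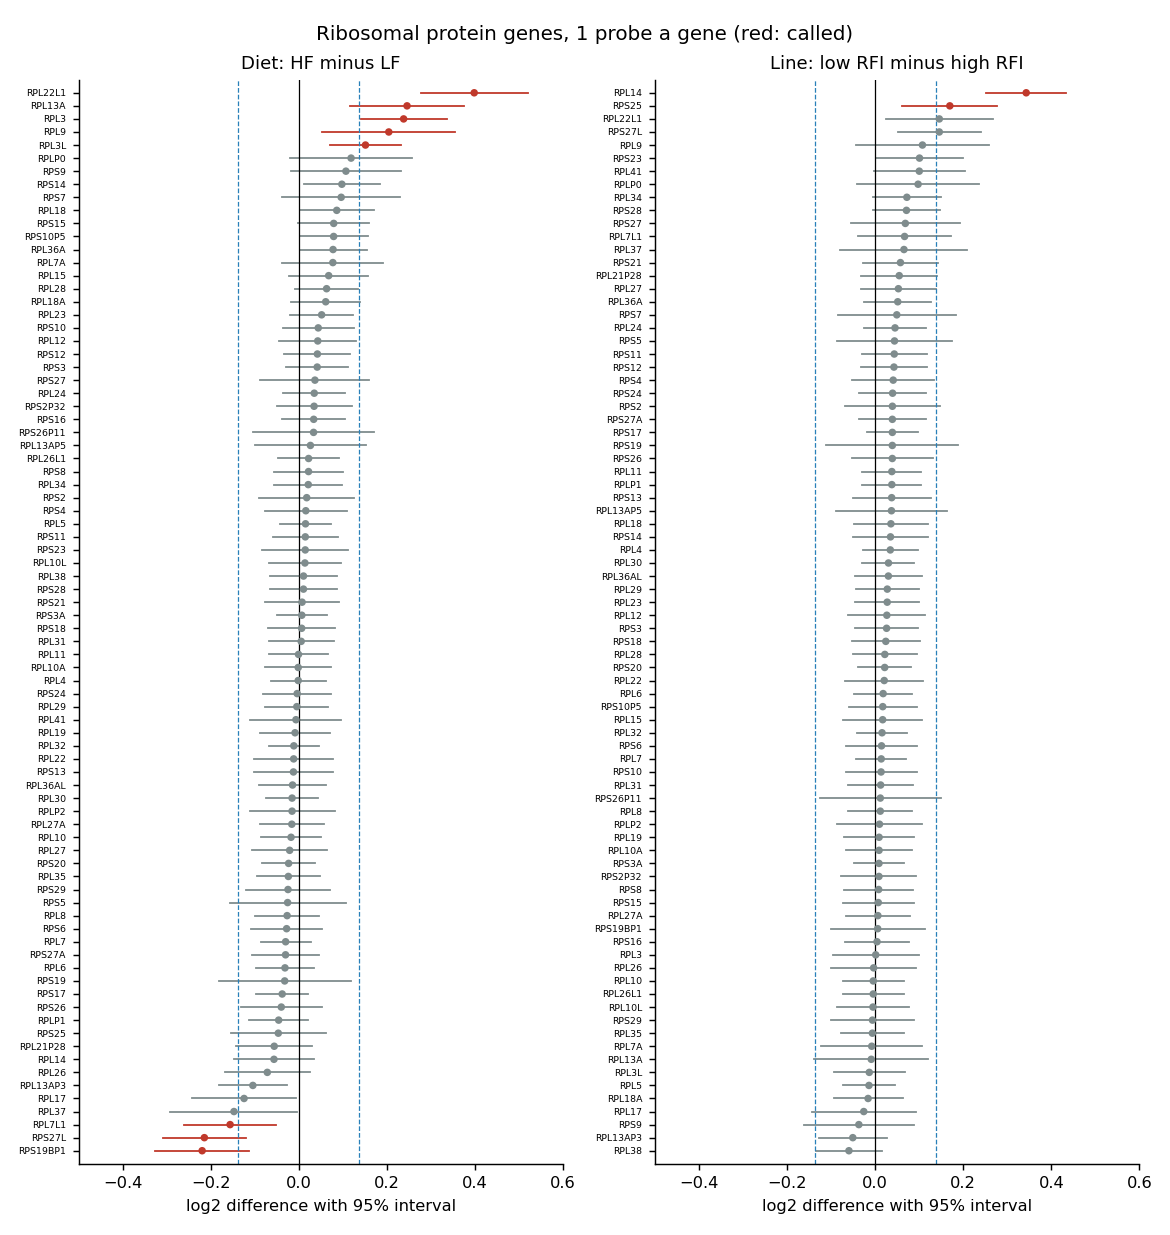
Difference in log2 level with its 95% interval (horizontal axis) for the 82 tested members, 1 probe a gene, ordered by size, by diet (left, HF minus LF) and by line (right, low minus high RFI); red marks called members and dashed lines the fold threshold of 1.1. The intervals of 51 members by diet and 57 by line lie between the dashed lines, while RPL22L1 (0.40) and RPL14 (0.34) lead the 2 panels.

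The diet difference did not pass the test of differing between lines in any member. The smallest interaction p values were 0.077 for RPS24, 0.13 for RPL36A and 0.15 for RPL32, each with a limma adjusted p of 0.99991. No member reached a raw p of 0.05, and 0.309% of all tested probes reached a raw p of 0.01 with no adjusted p below 0.08. RPS24, a small subunit protein mutated in some cases of Diamond-Blackfan anaemia, had a diet difference of -0.07 in the low and 0.07 in the high RFI line, an interaction of -0.14 (SE 0.08). Pigs within a group differed least in RPL7, RPL32 and RPS3A (SD 0.085, 0.087 and 0.087) and most in RPL9, RPS19 and RPL37 (SD 0.265, 0.264 and 0.252), and the median SD was 0.134 among members and 0.204 among all tested probes.

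Probes of a gene did not always give the same contrast. Of 45 members with at least 2 tested probes, 5 had some but not all probes called by line and 6 by diet, and the dimmest probe showed a larger difference than the brightest in 31 genes by line and 30 by diet. Counting probes in place of genes, 20 of 285 were called by line (7.02%), all higher in low RFI pigs, and 18 by diet (6.32%), 10 higher and 8 lower in HF pigs. The 20 probes belonged to RPL6 (9), RPL14 (6), RPL35 (2) and RPL30, RPL38 and RPS25 (1 each), and several of them overlap. In 5 pairs of probes with identical sequence the contrasts differed by at most 0.01 by diet and 0.02 by line, so spots of the same sequence gave nearly the same contrast.

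RPL38, a small protein of the large subunit known for its part in translating Hox mRNAs in mice, showed the widest gap between probes. Its probe with AATAAA ran from 6.16 through 7.69 to 8.59 in low RFI and from 5.56 through 5.87 to 8.01 in high RFI pigs. The difference of 1.59 (SE 0.20, adjusted p = 4.41e-07) exceeded those of all other member probes, and was 1.82 on HF and 1.36 on LF. The values fell into an upper and a lower cluster, with none between 6.20 and 7.37. Of the 24 pigs above that gap 21 were low RFI and 3 high RFI, and 12 were on each diet. On its other and brighter probe, in the coding part, low RFI pigs ran from 9.07 through 9.21 to 9.51 and high RFI pigs from 8.96 through 9.29 to 9.56. That difference was -0.06 (SE 0.04, 95% interval -0.13 to 0.02, adjusted p = 0.55).

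RPL35, a large subunit protein at the exit of the peptide tunnel, also had probes in conflict. A pair of probes of identical sequence gave 0.65 and 0.63 (SE 0.13 each, adjusted p = 0.0012 and 0.0018). On the first, low RFI pigs ran from 1.95 through 2.96 to 3.74 and high RFI pigs from 1.76 through 2.103 to 3.16. No pig lay between 2.52 and 2.89, and above that gap were 20 low RFI and 6 high RFI pigs. Both this gap and that of RPL38 were picked as the widest in the probe's own values, away from their ends. The gap of RPL35 was the narrower. The brightest RPL35 probe ran from 9.63 to 10.10 in low and from 9.55 to 10.04 in high RFI pigs, a difference of -0.01 (SE 0.03, 95% interval -0.08 to 0.06). Genotypes were not analysed here.

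**Figure D4:**
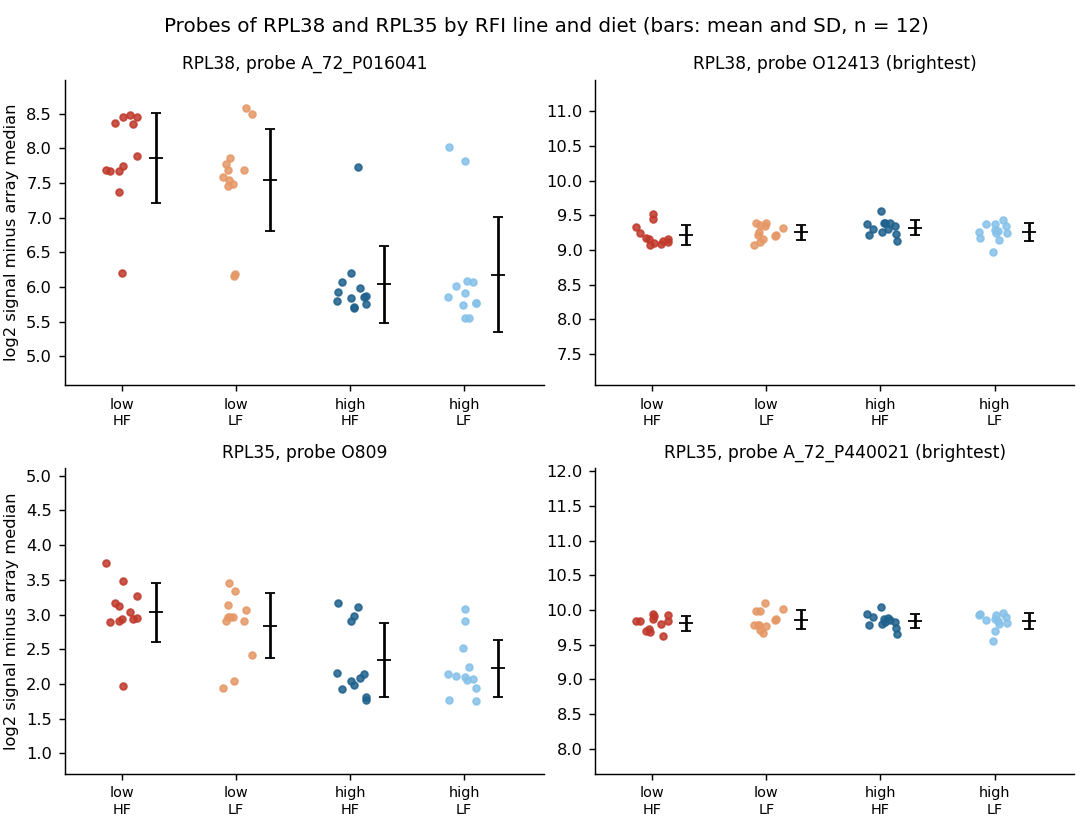
Level (vertical axis, log2 signal minus array median) on 2 probes of RPL38 and 2 of RPL35, 1 point a pig, by line and diet, with bars for the mean and SD (n = 12); axes in a row have the same length in log2 units. On the left, the widest gap in the values, away from their ends, is narrower for RPL35 than for RPL38. Above it lie 21 of 24 low RFI pigs for RPL38 and 20 of 24 for RPL35. The brightest probes on the right differ by -0.06 and -0.01 between lines.

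RPL6, a large subunit neighbour of RPL14, had 15 tested probes, of which 11 overlap in a stretch of its sequence. The 9 that begin at bases 1 to 75 of this stretch were called, with differences from 0.29 to 0.47. The remaining pair, beginning at bases 91 and 113, gave 0.07 and 0.05. The last called and the first uncalled probe, printed above, share a run of 37 bases and still differed by line by 0.30 (SE 0.06, adjusted p = 0.000777) and 0.07 (SE 0.03, adjusted p = 0.43). Just before this run the uncalled probe holds an extra g, so the probes are not identical over their whole overlap. On the last called probe, low RFI pigs ran from 8.85 through 9.03 to 9.25 and high RFI pigs from 7.98 through 8.75 to 9.14. The line difference there came with a wider spread in the high RFI line, whose SD was 0.26 against 0.12. The brightest RPL6 probe gave 0.02 (SE 0.03), and the 4 probes outside the stretch gave 0.02 to 0.05. Of 4 RPL30 probes 1 was called (0.16, level 0.88), with 0.03 to 0.05 on the others. The 6 probes of RPS10 spread from -0.25 to 0.17 by line with none called.

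**Figure D5:**
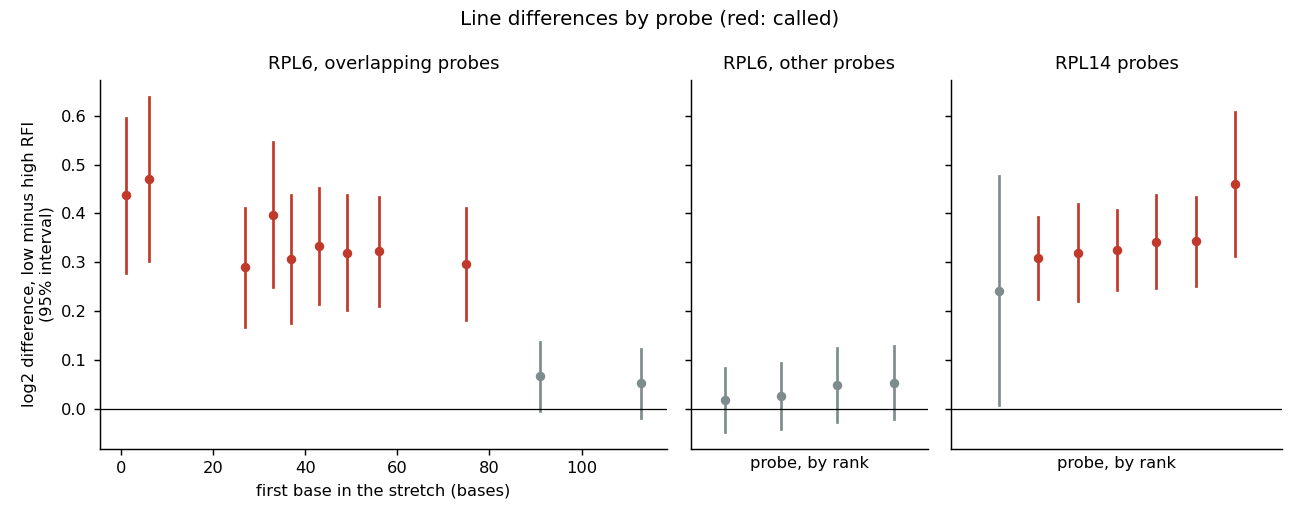
Line difference (vertical axis, log2, low minus high RFI, with its 95% interval) of the RPL6 probes by their first base in the overlapping stretch (left), of the 4 other RPL6 probes (middle) and of the 7 RPL14 probes (right), red where called. The last called RPL6 probe begins at base 75 with a difference of 0.30 and the next, at base 91, gives 0.07, while 6 of 7 RPL14 probes are called.

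By diet, RPL26L1, the paralog of RPL26, was the 1 gene with a called probe and another of opposite sign. Of its 5 probes 3 were called lower in HF pigs, with -0.18 to -0.16, and the probe printed first above gave -0.12 (SE 0.04), below the fold threshold. The brightest of these 4 ran from 4.78 through 4.98 to 5.18 in HF and from 4.89 through 5.19 to 5.37 in LF pigs, with all 24 HF pigs below the LF median. The brightest probe of all, printed second, ran from 9.47 through 9.63 to 9.81 and from 9.37 through 9.61 to 9.81 and gave 0.02 (SE 0.03). RPL26L1 and RPL26 are near-identical in their coding sequence, so the mRNA behind this probe is uncertain. When arrays were centred on spike-in RNA these differences were -0.07 to -0.01 and 0.13, with none called.

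In the other genes with some but not all probes called by diet, the probes agreed in sign and differed in size. Where no probe was called signs could differ, as in RPL6 (-0.03 to 0.20) and RPL35 (-0.02 to 0.17). Of 4 RPS15 probes 2 were called higher in HF pigs (0.19 and 0.17), and the 2 brightest gave 0.07 and 0.08. RPL15 had 0.21 (called) on its dimmer and 0.07 on its brighter probe, and RPL27A -0.25 (called) at a level of -0.18 and -0.02 at a level of 10.01. Of the 19 RPL5 probes, all positive from 0.01 to 0.14, 1 was called. RPL13A was the single member with at least 2 tested probes of which all were called, by diet.

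Ribosomal proteins outside the symbol rule gave 1 diet call of 4 tested (25%), and other TOP mRNAs 1 of 16 (6.25%). Among all tested probes 24.3% were called. Of these ribosomal proteins, RPSA, the small subunit protein also known as the laminin receptor, was lower in HF pigs, at 8.88 through 9.28 to 9.48 against 9.08 through 9.38 to 9.72 in LF pigs, a difference of -0.15 (SE 0.05, adjusted p = 0.0091). FAU gave 0.01 and RACK1 (named GNB2L1 in the files) 0.02. Of 16 elongation factors and other TOP mRNAs, 1 was called, TPT1, which encodes an abundant growth-related protein, with -0.14 (SE 0.03). Their median was 0.01, and none was called by line. Neither RPSA nor TPT1 was called with centring on the 75th percentile, quantile normalization or spike-in centring. Of the 16, quantile normalization gave 2 higher and 0 lower (12.5%, against 23.6% of all probes). Spike-in centring gave 4 higher and 0 lower (25%, against 29.1%).

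Genes that start translation, build ribosomes or control TOP mRNAs are read against all tested probes, of which 24.3% were called by diet, 6170 lower and 3669 higher in HF pigs. Of 46 initiation factors 13 were called lower and 1 higher (30.4%), with a median of -0.07. The lowest was EIF5 (-0.33), and the 1 higher, EIF2C4 (0.24), is an older symbol of an argonaute, which is no initiation factor. Of 37 tested ribosome biogenesis genes 13 were lower and 2 higher (40.5%), with a median of -0.12. RRP9 was lowest (-0.44), and the 2 higher were the helicase DDX10 (0.31) and the transcription factor MYC (0.27). Of 20 genes of mTORC1 and TOP mRNA control 6 were lower and 0 higher (30%), with a median of -0.06, the lowest being LAMTOR2 (-0.24), a part of its lysosomal anchor. Spike-in centring, under which 10016 of all probes were higher and 1759 lower (29.1%), moved the median over all probes from -0.02 to 0.085. It gave 2 lower and 6 higher initiation factors (17.4%, median 0.03) and 4 lower and 2 higher biogenesis genes (16.2%, median -0.01). For mTORC1 and TOP mRNA control it gave 0 lower and 1 higher gene (5%, median 0.05). The medians of the first and the last list changed sign as that of all probes did, and each list stayed below all probes in both settings.

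Of 56 tested mitochondrial ribosomal proteins, which translate mRNAs of the mitochondrial genome, 31 were called lower and 0 higher in HF pigs (55.4%, against 24.3% of all tested probes), with a median of -0.16. Quantile normalization gave 17 lower and 0 higher (30.4%, against 23.6% of all probes) and a median of -0.13, and spike-in centring 9 lower and 1 higher (17.9%, against 29.1%) and a median of -0.05, where that of all probes was 0.085. MRPL35 was lowest, at 2.30 through 2.60 to 2.98 in HF and 2.59 through 3.07 to 3.34 in LF pigs, a difference of -0.43. By line 3 of these 56 were called, MRPL17, MRPL9 and MRPL15, all higher in low RFI pigs (0.20, 0.23 and 0.20). Of the 37 biogenesis genes 2 were called by line, UTP18 (0.40) and DDX10 (0.29), also higher. Among all tested probes 3.57% were called by line. A difference between the cytosolic list and these lists was not tested.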

How the data were processed

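PRAT RNA of 48 pigs, 12 a group, was measured on one-colour arrays. The authors scanned the Cy3 signal, and Feature Extraction 10.7.3.1 gave the deposited spot intensity with other columns (flags for background, saturation and outliers, per the file headers). The deposited log2 values were made by the authors in R 2.10.0: spots were filtered, log2 transformed and centred on the array median. Their row names did not belong to their values: all 38142 rows matched 1 spot each by value (tolerance 1e-06), and 2 carried its name. The log2 median signal of the scanner files, minus the median over 60306 non-control spots, was therefore used, without 198 outlier spots.

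A model of diet, line and their interaction was fitted with limma 3.58.1 in R 4.3.3 over 40510 probes and tried on simulated data. There 40 of 100 diet differences of 0.2 and 97 of 100 of 0.5 were called, with 9 calls among 40310 unchanged probes. The simulated noise was independent between probes, and far fewer probes were changed than were called in the data. These rates therefore need not hold for the data. The number of arrays limits the precision. Members and lists were chosen with earlier results of these data known. Named were called members, genes with a called probe and another of opposite sign, paralogs and proteins outside the symbol rule. Named too were extremes of spread and interaction and, of each list, the called genes with the largest rise and fall. Genes with partly called probes, RPL22, RPS9, RPS10, MYC, UTP18, the 3 mitochondrial genes called by line and the named markers were added after their values were seen. Alternatives were other centrings, background corrections, filters, blocks, thresholds, subsets of pigs and choices of probe; the deposited values, centring on probes above background on all arrays and the scalings of the other lists were chosen after seeing the data. The array's gene names can be old. One gene of the lists is not reported here.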

Additional observations from a re-analysis of the deposited data

How the results depend on the processing

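Among the medians and the called members, no direction turned between settings except that of the median diet difference, which ran from -0.02 with the processed signal, or in low RFI pigs alone, to 0.11 with spike-in centring, and that of the median line difference, which was -0.0047 in HF pigs alone. The number of members called by diet, 8, became 15 with quantile normalization, with or without normexp, 25 with spike-in centring, 3 in low RFI pigs alone, 3 without RPS19BP1 and the paralogs and 0 at a fold above 1.5. It was 12 with the dimmest probe of a gene and 9 with the mean of a gene's probes. Of all tested probes 24.3% were called in the main setting, 23.6% with quantile normalization and 29.1% with spike-in centring. The number called by line, 2, became 1 with centring on the 75th percentile, spike-in centring, the processed signal, no filter on dim probes, a two-way ANOVA without moderation, HF or LF pigs alone, the deposited values or an adjusted p below 0.05 with no fold threshold. It became 0 at a fold above 1.5 and 5 with the mean of a gene's probes or with its dimmest probe. The interaction gave 0 calls in all settings run. RPL14, RPL22L1 and RPL3 kept their call in 19 of 19 settings, RPL13A in 18, RPS19BP1 and RPS27L in 17, RPL3L in 16, RPL9 in 14, RPL7L1 in 13 and RPS25 in 11. Whether replicate numbers in the labels pair pigs was not settled, and the main fit did not use them. Of 72 pairs with the same number, 38 had deviations correlated above 0.1 (mean 0.12, from -0.22 to 0.55, against -0.01 for other pairs). Pigs with the same number lay on the same slide. With the replicate block, or with slide or scan day as a block, 9 members were called by diet and 3 by line, and with array weights 3 by line. The cause of these shifts was not tested. Signal over background kept the chosen probes of RPL13 and RPS4X out of the test, while the 82 tested members were well above background on all 48 arrays.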
